A study of Mus musculus with 2 samples.

Results

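The EGR, NR4A and KLF transcription factors examined here are 10 immediate early genes: Egr1, Egr2 and Egr3, Nr4a1, Nr4a2 and Nr4a3, and Klf2, Klf4, Klf6 and Klf10. Their signals were read from every probe set that the platform annotation ties to one of these symbols and to no other gene, which gave 24 of 45037 probe sets and all 10 genes of 18193 measured. Chondrocytes were taken from the ribs of mice aged 5 days, 1 sample from V156D mutant animals, which carry a knock-in of that mutation in Matn1, the gene of the cartilage matrix protein matrilin-1, and 1 from wild type. The series' design text describes cells of 5 littermates of known genotype that were pooled before RNA extraction. The ribs had been dissected and the cells released with collagenase in both groups, and each group was hybridised to 1 Affymetrix Mouse Genome 430 2 array. The comparison therefore set 1 pool against 1 pool, and no replicate error, test or p-value exists for any value given here. The sources used here do not give the strain, the sex or the zygosity of the animals.

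Immediate early genes are switched on within minutes of a stimulus and need no new protein synthesis, because the factors that drive them already wait in the cell. Growth factors act largely through serum response factor and its ETS partners, which bind the serum response element with its CArG box. Hormones and prostaglandins act largely through CREB, which binds the cAMP response element (CRE). EGR proteins are zinc finger activators restrained by the NAB corepressors, NR4A proteins are orphan nuclear receptors, and KLF proteins bind GC-rich and CACCC sequences. Enzymatic release of cells from a tissue is itself a known inducer of such genes, so their level in freshly released cells need not be their level in the tissue.

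All 10 genes gave signals above the signal floor in both arrays, and none differed 1.5-fold between them. The floor, an intensity of 54.6, was the 50th percentile of the signals of all probe sets, averaged over both arrays as log2 values. By the brightest probe set of each gene, 9 of 10 log2 ratios of the mutant over the wild type were below 0, from -0.50 for Egr2 to 0.06 for Klf2, with a median of -0.06. Among all 11329 genes at or above the floor 55.0% were below 0 and the median was -0.02. The sign of the small ratios depended on the scaling, since 5 of 10 were below 0 after quantile normalization and 6 of 10 after a loess correction for signal, against 48.4% and 49% of all genes. Among the 1951 genes at least as bright as the dimmest member 62.8% were below 0.

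The promoters of 7 members were searched in the RefSeq table (build GRCm38.p6), as 300-base windows from 250 bases before to 50 after each start given there. The annotated genes Egr2, Nr4a1 and Nr4a3 begin upstream of the first start that has a window. No window was set on those beginnings, so the counts below cover the windows only. Egr3 and Klf10 had no window in that table. Egr1 was left out of the search, so nothing is said here of its motifs. The windows below are shown because they hold the motifs through which the known inducers act. They are from Egr2, the member with the lowest ratio, and from the NR4A genes, each of which had nearly the same signal in both arrays. Capitals mark the CArG box and the CRE core TGACG or its reverse complement, and each window is written 5′ to 3′ on the strand of its gene.
Egr2, chr10:67537619-67537918, plus strand: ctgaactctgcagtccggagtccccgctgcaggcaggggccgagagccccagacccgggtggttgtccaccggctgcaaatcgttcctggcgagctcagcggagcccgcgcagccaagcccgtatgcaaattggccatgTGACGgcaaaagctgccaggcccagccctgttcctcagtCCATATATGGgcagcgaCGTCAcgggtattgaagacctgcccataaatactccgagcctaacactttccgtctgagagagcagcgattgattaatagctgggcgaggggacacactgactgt
Nr4a1, chr15:101266596-101266895, plus strand: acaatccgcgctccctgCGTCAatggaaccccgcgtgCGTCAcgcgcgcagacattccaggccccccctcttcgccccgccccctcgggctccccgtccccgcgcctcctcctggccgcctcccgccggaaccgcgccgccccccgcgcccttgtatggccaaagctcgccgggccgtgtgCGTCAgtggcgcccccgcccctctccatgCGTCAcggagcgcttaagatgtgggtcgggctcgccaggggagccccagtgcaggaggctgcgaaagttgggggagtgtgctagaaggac
Nr4a2, chr2:57123954-57124253, minus strand: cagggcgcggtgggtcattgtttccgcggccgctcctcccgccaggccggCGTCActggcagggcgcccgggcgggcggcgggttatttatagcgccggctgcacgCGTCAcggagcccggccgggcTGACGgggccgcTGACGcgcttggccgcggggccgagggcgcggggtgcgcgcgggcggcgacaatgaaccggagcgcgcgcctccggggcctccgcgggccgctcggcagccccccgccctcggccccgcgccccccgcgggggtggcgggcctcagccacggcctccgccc
Nr4a3, chr4:48045055-48045354, plus strand: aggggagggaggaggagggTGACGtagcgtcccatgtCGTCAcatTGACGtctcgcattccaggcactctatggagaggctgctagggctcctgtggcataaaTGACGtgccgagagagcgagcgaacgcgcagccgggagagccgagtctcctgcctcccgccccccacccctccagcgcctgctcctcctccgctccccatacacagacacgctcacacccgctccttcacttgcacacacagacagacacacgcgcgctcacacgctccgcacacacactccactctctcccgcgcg
The CArG box, searched as the serum response factor consensus, occurred in 1.63% of 32851 promoter windows and in those of Egr2 only among these 7 members. Egr2 had 5 windows, of which 4 held a CArG box, and these were 2 different boxes, because overlapping windows share one. The core TGACG, counted on either strand, occurred in 20.8% of all windows and in those of 6 of the 7 members, all but Klf6. Nr4a1, Nr4a2 and Nr4a3 each held 4 of these cores, a number reached by 0.231% of all windows. The full palindrome TGACGTCA, which contains the core on both strands, was in none of the members' windows and in 1.79% of all windows. TATAAA, read on either strand, was in the window of Nr4a2 and in 13.6% of all windows. The Nr4a2 match lay at -164 bases on the strand opposite the gene, so it is not called a TATA box here. A match is a run of letters and not a measured binding site, and nothing was measured at these promoters here. Whether the motifs bear on the ratios was not tested.

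**Figure D1:**
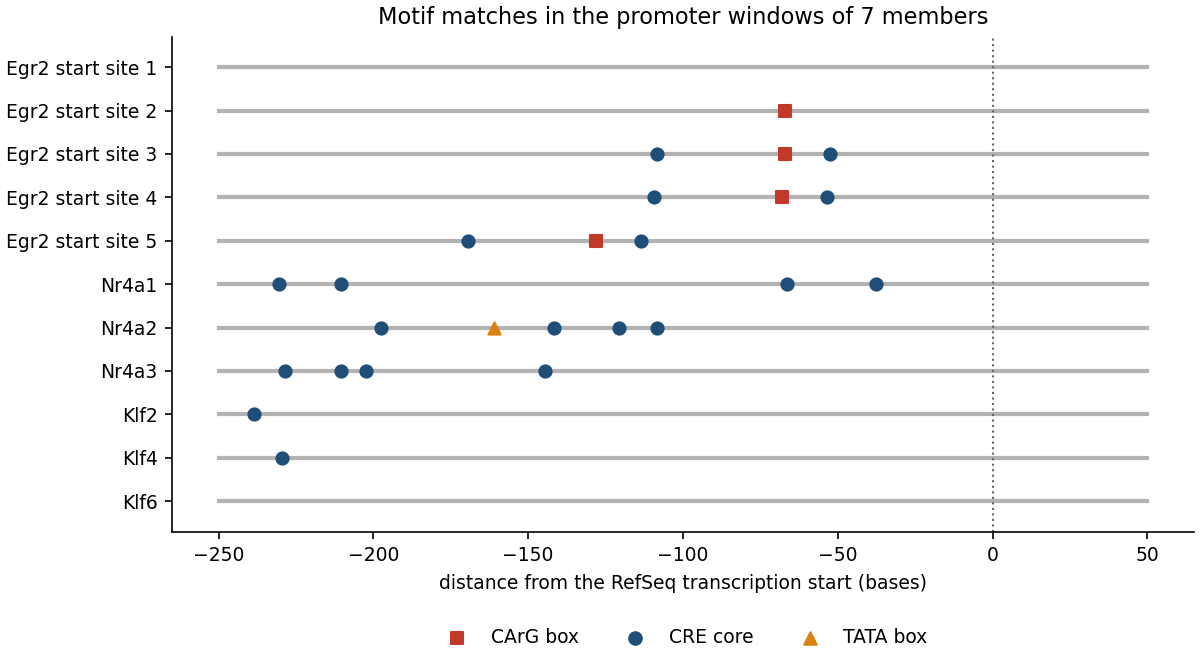
Positions of motif matches in the 11 RefSeq promoter windows of 7 members, as distance in bases from the annotated start (x axis), with 1 line per window. Squares are CArG boxes and circles CRE cores. Triangles, labelled TATA box, are matches to TATAAA on either strand. The NR4A windows carry 4 CRE cores each while 4 of 5 Egr2 windows carry a CArG box.

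Egr2 and Egr3 were the members with the lowest ratios, and Egr1 was nearly equal in both arrays. Egr2, a zinc finger factor best known from myelinating Schwann cells and hindbrain development, had an intensity of 796 in the mutant and 1130 in wild type with its brightest probe set. Its other probe set read 701 in the mutant and 986 in wild type. Both thus read lower in the mutant by almost the same factor, 1.42-fold and 1.41-fold, and their log2 ratios averaged -0.50 ± 0.01 (SD over 2 probe sets, not over samples). Of the 11329 genes, 373 (3.29%) had a ratio as low as that of Egr2.

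Egr3, a relative induced by calcium and growth factor signals, had 2549 in the mutant and 3372 in wild type by its brightest probe set, a log2 ratio of -0.40. Its second probe set was far dimmer and went the other way, with 150 in the mutant and 118 in wild type, a log2 ratio of 0.34. The mean over both probe sets was -0.03, so the direction of Egr3 rested on the brighter one. Egr1, the most widely used marker of recent stimulation in the family, had 14702 in the mutant and 15315 in wild type, a log2 ratio of -0.06 from its only probe set.

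Probe sets of a gene gave a measure of how far a ratio can move with no change of sample. In 4878 genes, 2 or more probe sets lay at or above the floor, and the difference between the ratios of the 2 brightest had an SD of 0.26. The sizes of the Egr2 and Egr3 ratios lay beyond that value and those of the other 8 members lay within it. The SD holds for a difference of 2 ratios and not for 1 ratio, so it sets no member apart. The 2 probe sets of Egr3, at -0.40 and 0.34, themselves lay farther apart than that. The SD reflects probe error within the same arrays, and the spread between animals or pools was not measured.

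**Figure D2:**
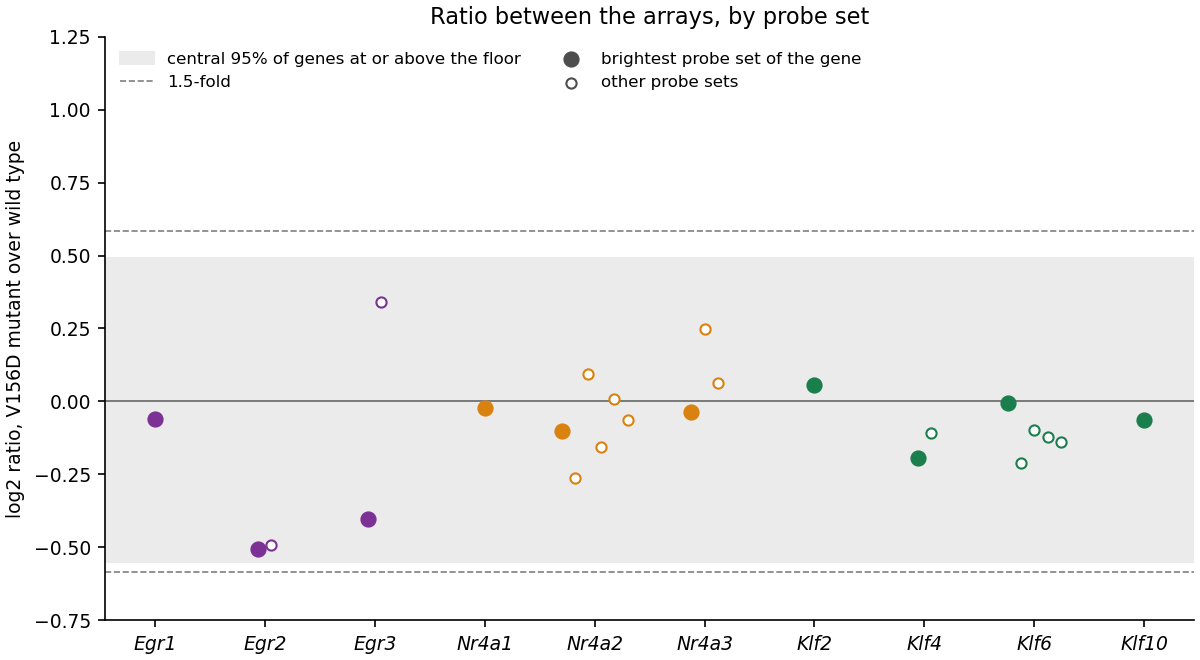
Log2 ratio of the V156D mutant over the wild type (y axis) for each of the 24 probe sets, grouped by gene on the x axis. Filled points are the brightest probe set of a gene, open points its other probe sets, the grey band is the central 95% of all genes at or above the floor (-0.55 to 0.49), and no point reaches the dashed 1.5-fold lines.

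The NR4A genes had nearly the same signals in both arrays. Nr4a1, known as Nur77 and induced in many cells by growth factors and by mechanical and inflammatory signals, had 7184 in the mutant and 7291 in wild type. Its log2 ratio was -0.02, which became 0.04 after quantile normalization and 0.03 after the loess correction. Nr4a3, known as NOR1, had 839 in the mutant and 860 in wild type by its brightest probe set. That log2 ratio of -0.04 was 0.02 and 0.03 under the same corrections, and the mean over its 3 probe sets was 0.09 ± 0.14 (SD over probe sets). The remaining Nr4a3 probe sets were dim, with 101 in the mutant and 85.3 in wild type for one, and 61 in the mutant and 58.4 in wild type for the other. No direction is given for Nr4a1 or Nr4a3, since it followed the scaling.

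Nr4a2, known as Nurr1 and required for midbrain dopamine neurons, was covered by 6 probe sets, the most of any member. The brightest read 3912 in the mutant and 4195 in wild type, a log2 ratio of -0.10. The next had 2980 in the mutant and 3579 in wild type, a log2 ratio of -0.26, which was the lowest of the 6. The third had 2126 in the mutant and 1992 in wild type, a log2 ratio of 0.09, which was the highest. The fourth read 1817 in the mutant and 2027 in wild type. The last 2 lay close to the floor, with 72.2 in the mutant and 71.7 in wild type, and with 54.3 in the mutant and 56.8 in wild type. Of the 6, 4 were below 0 and 2 above, and the mean was -0.08 ± 0.13 (SD over probe sets), so probe sets of this gene disagreed by more than the mean itself.

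The ratios of the KLF members lay close together, with that of Klf4 the lowest. Klf4, a zinc finger factor of epithelia, vessels and pluripotent cells, had 5657 in the mutant and 6476 in wild type by one probe set and 3890 in the mutant and 4196 in wild type by the other. Both were lower in the mutant array, with log2 ratios of -0.19 and -0.11. Klf10, a factor induced early by TGF-beta, had 2882 in the mutant and 3009 in wild type, a log2 ratio of -0.06 that was 0.01 after quantile normalization.

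Klf6, a widely expressed member linked to injury responses, showed the same sign in all 5 probe sets. Its brightest had 4738 in the mutant and 4755 in wild type, a log2 ratio of -0.01, and the other 4 ran from -0.21 to -0.10. The probe set at -0.21 read 2226 in the mutant and 2575 in wild type. The mean over the 5 was -0.11 ± 0.07 (SD over probe sets), while the brightest alone was 0.06 after quantile normalization and 0.05 after the loess correction, so its sign was not settled.

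Klf2, known for its induction by blood flow in vessel walls, was the one member above 0. It had 3700 in the mutant and 3559 in wild type, a log2 ratio of 0.06 from its only probe set. Under the scalings tried this ratio ran from 0.03 to 0.11. With 1 probe set, the choice of probe set could not change it. Markers of endothelial cells were higher in the same array. Of 12 measured, 8 were at or above the floor, 7 of these 8 above 0, with a median log2 ratio of 0.72. Over all 12, the summed intensity was 1404 in the mutant and 941 in wild type. The defining marker Cdh5 had 144 in the mutant and 55.1 in wild type by its brightest probe set, a log2 ratio of 1.39, whereas its other probe set gave 0.11. Pecam1 had 74.8 in the mutant and 35.3 in wild type, and 10 of the 12 reached the floor in the mutant and 7 in wild type. In RNA of mixed cells, fewer cells of a type and less RNA per cell cannot be told apart, and the part of endothelial cells in the Klf2 signal was not tested.

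**Figure D3:**
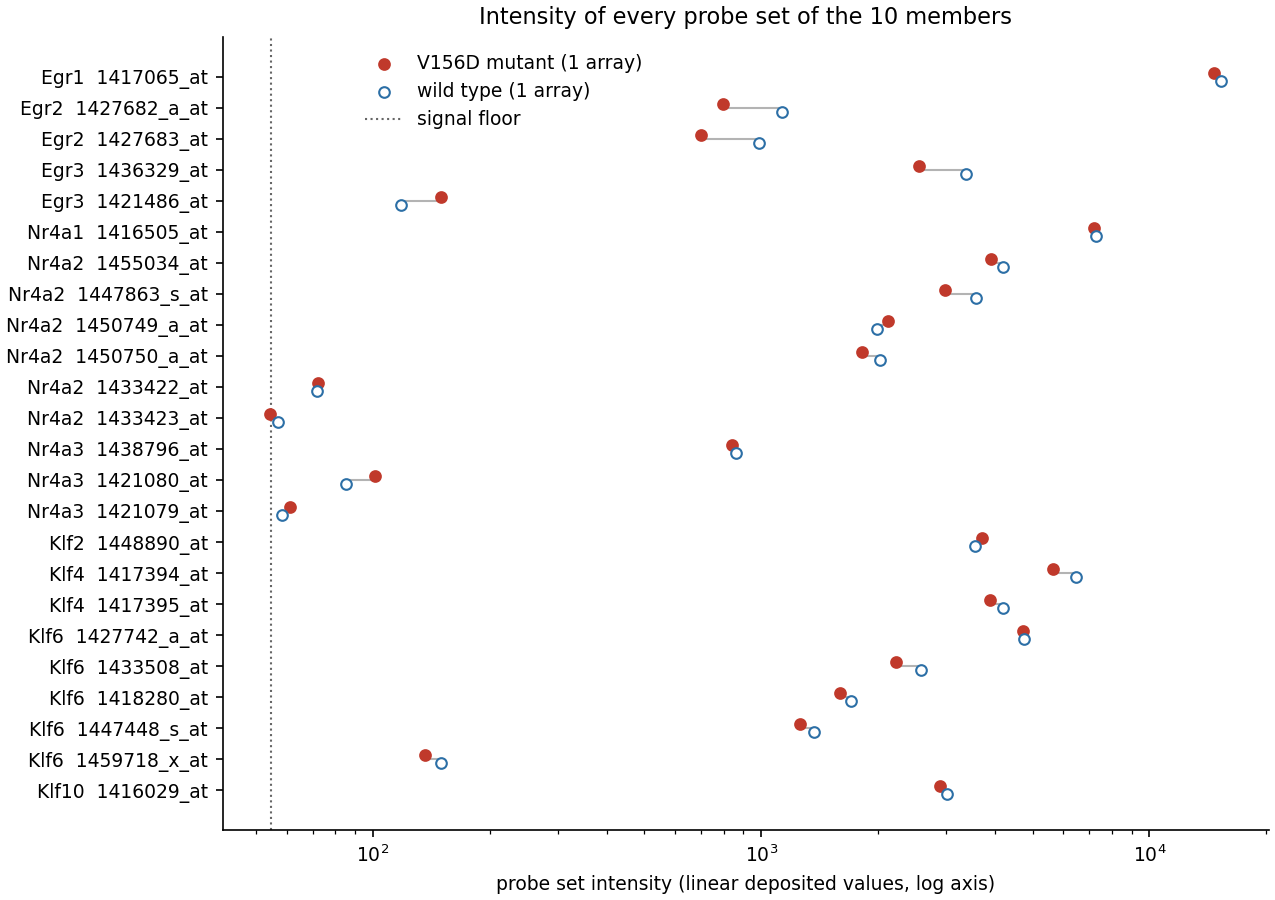
Intensity of each of the 24 probe sets (x axis, log scale) in the V156D mutant array (filled) and the wild-type array (open), 1 line per probe set, with the signal floor dotted. The 2 probe sets of Egr2 and the brighter one of Egr3 show the widest gaps with the mutant to the left, and intensities of different probe sets are not comparable with each other.

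The background of differences between these arrays was small in number. At or above the floor, 1.70% of genes were higher in the mutant by 1.5-fold or more and 2.02% were lower by as much. At 2-fold these shares were 0.653% higher and 0.256% lower. Among genes at least as bright as the dimmest member, 0.974% were higher by 1.5-fold or more and 2.05% lower. With 10 members, counts of 0 at either threshold lie near these shares and say nothing particular about the members.

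**Figure D4:**
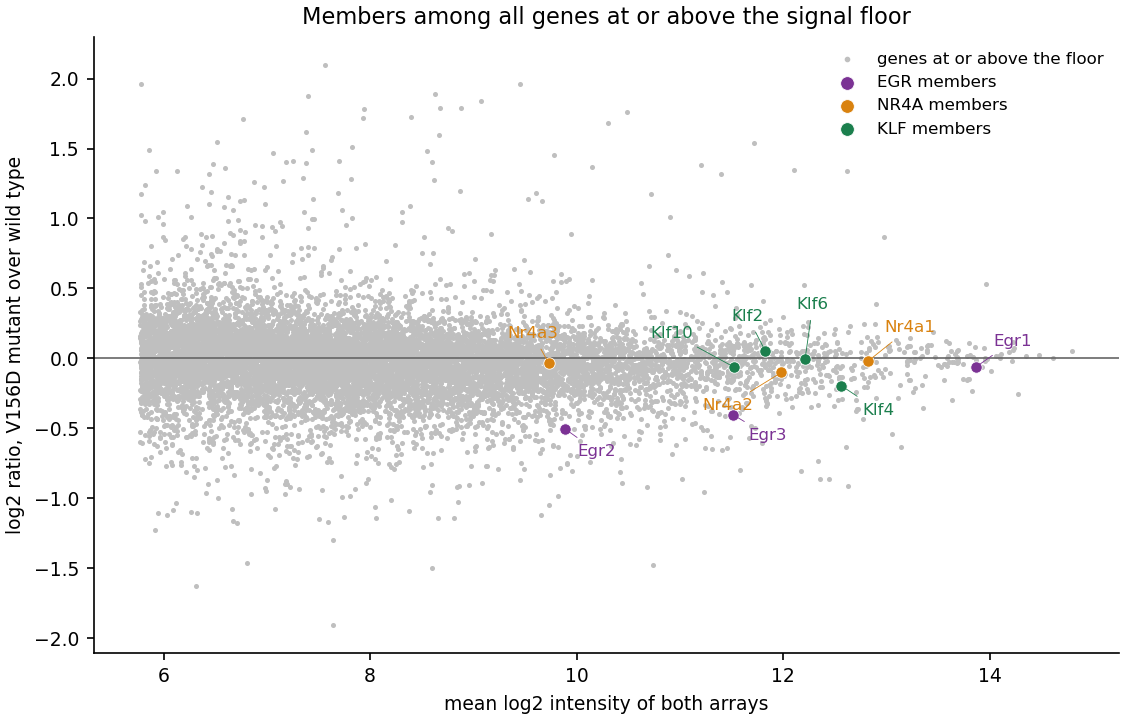
Log2 ratio of the V156D mutant over the wild type (y axis) against the mean log2 intensity of both arrays (x axis), 1 point per gene at or above the floor, with the members coloured by family. Egr2 at -0.50 and Egr3 at -0.40 sit in the lower part of the cloud, with 3.29% and 5.6% of genes at or below them, and the other members nearer its middle.

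Relatives of the members were looked at as a list of 14 other EGR and KLF genes, of which 13 were measured and 11 lay at or above the floor. Of these, 7 had ratios below 0 and 4 above, with a median of -0.13, and 1 was at least 1.5-fold different. That gene was Egr4, the fourth EGR factor, with 228 in the mutant and 396 in wild type, a log2 ratio of -0.79 from 1 probe set. By the brightest probe sets all 4 EGR genes were thus below 0, although Egr1 was near 0 and Egr3 rested on 1 of its 2 probe sets. With 55.0% of all genes below 0, this count of 4 says nothing particular about the family. Klf5, a factor of proliferating epithelia and smooth muscle, had 389 in the mutant and 542 in wild type, and the mean log2 ratio of its 3 probe sets was -0.34 ± 0.15 (SD over probe sets). At the other end were Klf14 with 257 in the mutant and 214 in wild type and Klf11, a close relative of Klf10, with 169 in the mutant and 147 in wild type.

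Partners of the members differed little. The EGR corepressor gene Nab1 had 1391 in the mutant and 1510 in wild type, and Nab2, itself a known EGR target, had 206 in the mutant and 202 in wild type. The retinoid X receptors pair with Nr4a1 and Nr4a2. Of these, Rxrb had 431 in the mutant and 416 in wild type, and Rxra had 197 in the mutant and 165 in wild type by its brightest probe set, while its 3 probe sets ranged from -0.46 to 0.25. Rxrg lay below the floor in both arrays, with 45.5 in the mutant and 46.1 in wild type.

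The factors that act on immediate early promoters were of either sign. Of 16 listed, 14 were measured, all at or above the floor, with 9 below 0, 5 above and a median of -0.05. Srf, the serum response factor that binds the CArG box, was the lowest, with 563 in the mutant and 739 in wild type, and both of its probe sets were below 0 (-0.39 and -0.29). Creb1, the CRE-binding factor, had 311 in the mutant and 397 in wild type, and the mean log2 ratio of its 6 probe sets was -0.22 ± 0.13 (SD over probe sets). By the brightest probe sets the highest were Mef2c, a regulator of chondrocyte hypertrophy, with 253 in the mutant and 201 in wild type, and Mef2d, whose 3 probe sets disagreed from -0.83 to 0.21 with a mean of -0.18. By the brightest probe sets none of the 14 differed 1.5-fold, while single dimmer probe sets of Mef2d and Mef2a, at -0.83 and -0.81, did. Mef2a was named after its value was seen.

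Other immediate early genes, AP-1 genes among them, gave 21 of 25 ratios below 0, against 55.0% of all genes at or above the floor. Among genes at least as bright as the dimmest member this share was 62.8%. The median of the list was -0.24, against -0.02 over all genes and -0.04 over those bright genes. Against 2.02% of all genes, 2 of the 25 were at least 1.5-fold lower. They were Arc, best known from neurons, with 769 in the mutant and 1242 in wild type, and the AP-1 subunit Fosl1, with 2243 in the mutant and 3499 in wild type. Jund and the matrix-associated gene Ccn2 were the highest, with log2 ratios of 0.20 and 0.09. The median of this list stayed between -0.26 and -0.19 under every setting tried. The median of the 10 members, -0.06, ran from -0.08 to -0.01.

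Genes of TGF-beta signalling, which induces Klf10, divided into 4 below 0 and 6 above among 10 at or above the floor, with a median of 0.03. Tgfb3, a TGF-beta ligand, had 569 in the mutant and 451 in wild type, and the receptor gene Tgfbr2 had 1094 in the mutant and 906 in wild type. By the brightest probe sets the lowest were Tgfbr1 at -0.10 and Tgfb2 at -0.06 on the log2 scale, and the 4 probe sets of Tgfb2 ran from -0.54 to -0.06 with a mean of -0.28.

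Heat shock genes and markers of fibrous tissue had list medians farther from 0 than the members, as had the endothelial markers. All 12 heat shock genes were below 0, with a median of -0.68 and a summed intensity of 84883 in the mutant and 114485 in wild type. Their lowest were Dnaja4 at -1.48 and Hspb8 at -1.14, and their highest Hspa1b at -0.15 and Hspa1a at -0.21. Heat shock genes, Egr2 and, by its brighter probe set, Egr3 thus read lower in the same array. The brighter members Egr1 and Nr4a1, at -0.06 and -0.02, were nearly equal in both. Whether handling or cell release differed between the preparations was not tested. Of 12 fibroblast, tendon and perichondrial markers, 11 were above 0, with a median of 0.92 and a summed intensity of 79578 in the mutant and 49863 in wild type. Their defining marker Col1a1 had 7010 in the mutant and 2759 in wild type. The part of these cells in the signals of the members was not tested.

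The labelled cell type was checked against its markers, and all 10 chondrocyte markers lay at or above the floor in both arrays. Col2a1, the main cartilage collagen, had 29057 in the mutant and 27997 in wild type, and the proteoglycan gene Acan had 8564 in the mutant and 8223 in wild type. The mutated gene Matn1 had 4340 in the mutant and 4373 in wild type, a signal that does not tell the alleles apart. The list had a median log2 ratio of 0.03, with 7 genes above 0 and 3 below. The lowest, named after their values were seen, were Sox9, the master regulator of chondrocytes, with 2555 in the mutant and 3134 in wild type, and Matn3 with 9076 in the mutant and 10082 in wild type. All probe sets of both genes were below 0. Macrophage and blood markers reached the floor in 4 of 9 measured, 2 of the 4 below 0 and 2 above, with log2 ratios from -0.34 to 0.17, and the leukocyte marker Ptprc was below the floor with 10.8 in the mutant and 11.1 in wild type. The summed intensity of the 9 was 1580 in the mutant and 1882 in wild type, and Cd14, named after its value was seen, held 1187 of it in the mutant and 1500 in wild type. Muscle markers reached the floor in 4 of 10, 3 of the 4 below 0 and 1 above, with log2 ratios from -0.48 to 0.45. Their defining marker Acta1 had 227 in the mutant and 308 in wild type. The sum of the 10 was 2065 in the mutant and 2634 in wild type, of which Tnnt3, also named after its value was seen, held 1388 in the mutant and 1930 in wild type. The median intensity over all probe sets was 55.1 in the mutant array and 54.3 in the wild-type array.

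**Figure D5:**
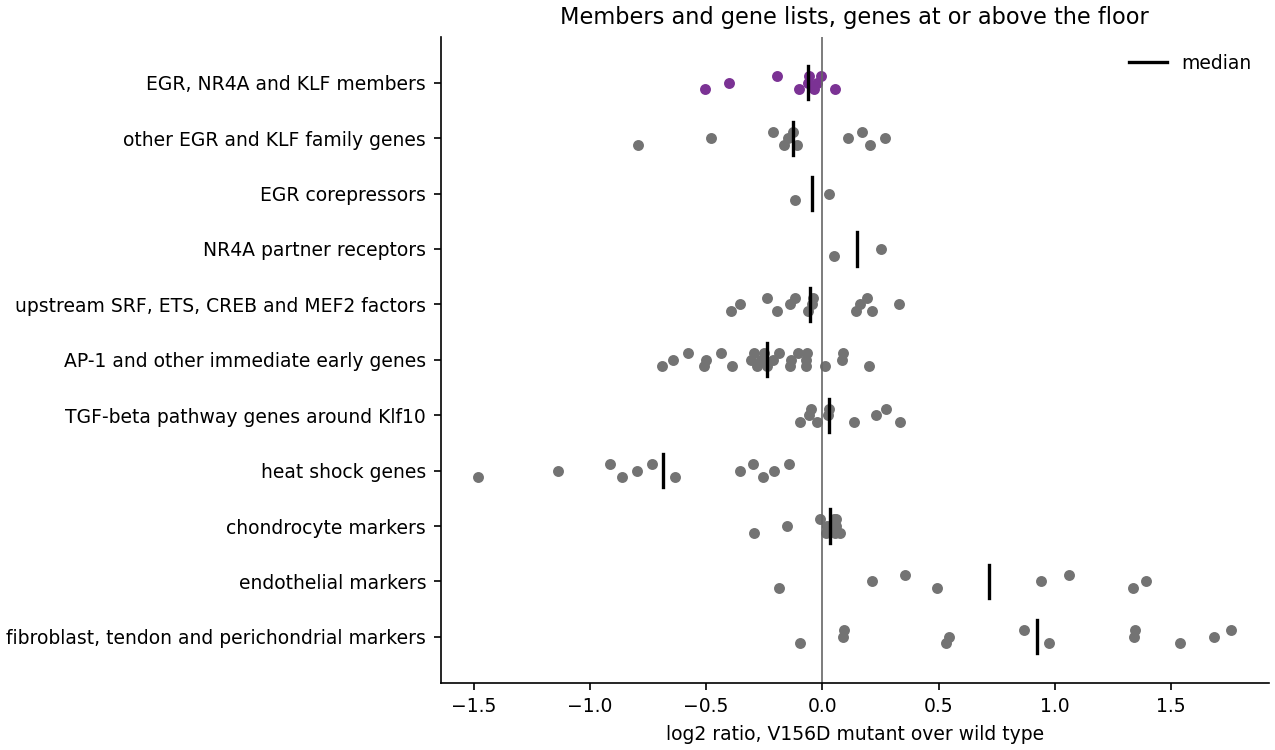
Log2 ratio of the V156D mutant over the wild type (x axis) for the 10 members and for genes at or above the floor in 10 other lists, 1 point per gene by its brightest probe set, with the list median as a bar. The members centre on -0.06, other immediate early genes on -0.24, heat shock genes on -0.68, and endothelial and fibroblast markers on 0.72 and 0.92.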

How the data were processed

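The authors deposited linear intensities, 1 per probe set and array. The submitters' processing notes name MAS5 without version or settings, and scaling and any detection calls are not stated there. Per the labels' protocols, labelled cRNA was made from 6 µg of total RNA. Gene names came from GEO's platform annotation and were checked by Entrez identifier against RefSeq GRCm38.p6. Of 45037 probe sets, 34945 named 1 gene, of which 34741 were found in that table and 0 changed name. A further 932 named several genes and 9160 none, and neither entered the gene comparison. The log2 of the deposited values was used unchanged, the brightest probe set by mean log2 signal stood for each gene, and ratios are mutant over wild type. With 1 array per genotype no test was made, and the number of arrays limits the precision.

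The members and lists were chosen with earlier results of these data known. Named were all members, all EGR corepressors and NR4A partners, the 2 highest and 2 lowest genes at or above the floor of each other gene list, and of the cell type marker lists, which are separate, the defining markers Col2a1, Acan, Pecam1, Cdh5, Col1a1, Ptprc and Acta1. With 2 arrays no gene could be ranked by likeness to a member. Alternatives were median centring, quantile normalization, loess (span 0.3), an offset of 32, other probe set choices, floors and thresholds. The scripts were tested on simulated data. Python 3.11.15, numpy 2.4.6, pandas 2.3.3, statsmodels 0.14.6 and matplotlib 3.10.9 were used.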

Additional observations from a re-analysis of the deposited data

How the results depend on the processing

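Of 60 ratios of single members under other scalings, offsets or probe set choices, 59 stayed within 0.26 of the reported log2 ratio. That value is the SD of the difference between the 2 brightest probe sets of a gene. The exception was Egr3, at -0.03 as the mean over its probe sets, where a dim probe set of opposite sign counts as much as the bright one. Many of the other values could hardly move. Egr1, Nr4a1, Klf2 and Klf10 have only 1 probe set each, so the choice of probe set left them unchanged. The offset of 32 was small beside the intensity of the dimmest member, 849. No member reached 1.5-fold under any alternative. The number of members below 0 was 9, and 5 after quantile normalization. Counts over all genes at least 1.5-fold lower were 229, and 146 with the offset of 32 and 142 with probe sets averaged. Those at least 2-fold higher and lower were 74 and 29, and 45 and 13 with the offset, or 16 and 2 at a threshold of 3-fold. A floor at the signal of the dimmest member, chosen after seeing the data, left fewer genes, with 19 higher and 40 lower at 1.5-fold and 11 and 2 at 2-fold. List medians moved for endothelial markers, to 1.0 without the _s_at, _x_at and _a_at probe sets, for fibroblast markers, to 1.27 with probe sets averaged and 1.34 with the floor of the dimmest member, and for muscle markers, from -0.23 to 0.22 without such probe sets. The cause of these shifts was not tested. At that highest floor no endothelial marker and no NR4A partner was left. No paired analysis was possible because each genotype has 1 array. Whether the authors scaled the arrays together is unknown, and signals near the floor may be compressed.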
